A study of Homo sapiens with 12 samples.

Results

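Expression of 10 NF-κB genes was followed in colon cancer cells labelled as overexpressing either the standard isoform of CD44 (CD44s) or the isoform that contains variable exon v6 (CD44v6). The genes were taken by symbol, from a set chosen with earlier results of these data known. They comprise 3 subunit genes (NFKB1, NFKB2, RELB), 2 feedback inhibitors (NFKBIA, TNFAIP3), 3 genes of the TNF receptor signalling complex (BIRC2, BIRC3, TRAF1) and 2 further targets (TNFAIP2, ICAM1). All 10 were found among the 62426 genes of the count table, 40400 of which had a count in any library, and all 10 passed the filter on low counts in each fit. The question was how far the transcripts of this pathway differed between cells labelled as overexpressing each isoform and parental cells, and whether the difference was alike in the 2 lines.

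RNA-seq was performed on 12 libraries from HCT116 and SW480, established human colon cancer lines. Each line had 3 groups of 2 libraries, namely cells labelled as CD44s overexpressing (CD44s-OE), cells labelled as CD44v6 overexpressing (CD44v6-OE) and parental cells. The cells with these labels were stably transfected with an expression plasmid and selected with Geneticin, and the names of their libraries describe them as pools rather than single clones. The controls were the parental cells, and no library of empty-vector or selected control cells was analysed here, so that the isoform, the transfection and the selection cannot be told apart. The labels do not say that the 2 libraries of a group came from separate cultures, so p-values measure the spread between these libraries only.

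Depth ranged between 43102156 and 52811889 assigned counts per library, with 23601 to 26072 genes detected, and a count of 0 allowed up to 0.114 to 0.139 CPM (3 read pairs, counting error only). Levels are given as CPM (counts relative to library size) scaled by TMM factors, which correct for differences in library composition. Total CD44 was not higher under the overexpression labels. It was 571 and 516 CPM in HCT116 CD44s-OE cells and 503 and 507 CPM in HCT116 CD44v6-OE cells, against 539 and 540 CPM in HCT116 parental cells. In SW480 it was 179 and 205 CPM in CD44s-OE cells and 134 and 146 CPM in CD44v6-OE cells, against 187 and 161 CPM in parental cells. The gene count adds up all isoforms, so it cannot check the isoform in a label, and OE is used here as the label only. The study itself reports RT-qPCR of both isoforms, normalised to constitutive CD44 exons, and CD44 western blots in its overexpressing cells. CD44-AS1, the antisense gene of the locus, had 97 and 119 counts in the HCT116 CD44v6-OE libraries and 154 and 177 counts in the SW480 CD44v6-OE libraries, with at most 3 counts in every other library. All 7 epithelial markers (such as EPCAM, KRT8 and CDH1) were measured, and their summed level was 6048 to 8471 CPM in HCT116 and 8186 to 18929 CPM in SW480, although VIL1 was at or near 0 in HCT116 parental cells. The sum was lower in SW480 CD44s-OE cells (8186 to 10081 CPM) than in SW480 parental cells (17086 to 18929 CPM). Mostly keratins make up the sum. Mean CDH1 was 18.4 CPM in HCT116 CD44s-OE and 56.0 CPM in HCT116 parental cells, and EPCAM 100 and 222 CPM. In SW480 CDH1 was 1.11 and 11.7 CPM and EPCAM 70.2 and 241 CPM in the same groups. KRT19 in HCT116 and VIL1 in both lines had higher means in CD44s-OE than in parental cells. The 6 leukocyte markers summed to 0.722 to 5.54 CPM with PTPRC at or near 0 throughout, and the 3 of 4 endothelial markers that were matched summed to 0.664 to 2.12 CPM. The replicate libraries of HCT116 CD44s-OE and of SW480 parental cells stood further apart than those of the other 4 groups, and those values are given with the results they touch.

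NF-κB is a family of dimeric transcription factors that are held inactive in the cytoplasm and released by signals from receptors for TNF, interleukin 1 and microbial products, and from RNA sensors. In the canonical arm, degradation of IκBα frees dimers of p50 and RELA. In the non-canonical arm, the precursor p100 is processed to p52, which pairs with RELB, and the ligases cIAP1 and cIAP2 restrain this arm by promoting the degradation of the kinase NIK. Several genes of the family are themselves NF-κB targets, among them those for p100, RELB, IκBα, A20 and cIAP2, so that their transcripts are widely used as readouts. In colonic epithelium the pathway is known for inflammatory signalling and for the survival of tumour cells.

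A κB element in a promoter is a known means by which such loops work, and the promoters of the 5 genes with a match to the κB consensus are shown for this reason. Windows of 300 bases (250 before to 50 after a transcription start) were taken from RefSeq on GRCh38.p14, whereas gene positions elsewhere are on hg19. A window was found for 9 of the 10 genes, all but RELB. On either strand, 6 of their 15 windows held the consensus, and these windows belonged to 5 of the 9 genes. Over all genes, 2075 of 35116 windows (5.91%) held it, belonging to 1937 of 27305 genes (7.09%). Each window is printed 5′ to 3′ on the strand of its gene, with the matched bases of either strand in capitals.
BIRC3 (chr11:102317234-102317533, plus strand): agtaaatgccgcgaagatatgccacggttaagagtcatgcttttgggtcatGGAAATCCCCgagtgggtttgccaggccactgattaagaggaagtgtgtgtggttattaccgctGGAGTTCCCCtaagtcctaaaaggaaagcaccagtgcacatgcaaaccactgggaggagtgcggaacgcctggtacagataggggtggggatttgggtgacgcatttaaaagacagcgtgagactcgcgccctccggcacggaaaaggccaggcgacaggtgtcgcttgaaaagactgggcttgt
TNFAIP3 (chr6:137867009-137867308, plus strand): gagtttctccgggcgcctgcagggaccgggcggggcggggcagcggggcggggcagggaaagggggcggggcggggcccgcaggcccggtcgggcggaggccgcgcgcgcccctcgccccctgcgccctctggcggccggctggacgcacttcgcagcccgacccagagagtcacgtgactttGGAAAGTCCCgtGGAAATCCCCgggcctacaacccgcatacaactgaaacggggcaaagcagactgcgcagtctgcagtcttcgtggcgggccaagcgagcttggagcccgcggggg
NFKBIA (chr14:35404700-35404999, minus strand): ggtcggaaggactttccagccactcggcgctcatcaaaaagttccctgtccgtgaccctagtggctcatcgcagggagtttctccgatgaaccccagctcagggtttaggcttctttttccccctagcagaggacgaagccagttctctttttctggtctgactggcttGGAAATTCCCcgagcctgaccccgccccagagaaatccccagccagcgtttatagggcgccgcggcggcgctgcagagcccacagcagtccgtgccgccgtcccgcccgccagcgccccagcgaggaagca
NFKB2 (chr10:102394328-102394627, plus strand): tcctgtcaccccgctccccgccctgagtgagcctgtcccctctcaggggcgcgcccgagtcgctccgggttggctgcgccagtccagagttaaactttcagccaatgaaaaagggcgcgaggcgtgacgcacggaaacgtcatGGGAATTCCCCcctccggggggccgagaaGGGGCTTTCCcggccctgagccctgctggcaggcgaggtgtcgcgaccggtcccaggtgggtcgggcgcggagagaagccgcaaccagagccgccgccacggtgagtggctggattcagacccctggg
NFKB1 (chr4:102501109-102501408, plus strand): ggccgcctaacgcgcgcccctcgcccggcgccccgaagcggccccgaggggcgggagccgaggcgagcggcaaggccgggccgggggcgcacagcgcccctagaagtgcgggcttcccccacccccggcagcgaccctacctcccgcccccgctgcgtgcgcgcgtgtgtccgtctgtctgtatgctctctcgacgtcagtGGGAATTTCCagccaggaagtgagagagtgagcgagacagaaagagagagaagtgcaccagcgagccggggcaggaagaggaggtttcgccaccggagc
In BIRC3 the matches began 199 and 135 bases before the start and read GGGGATTTCC and GGGGAACTCC on the opposite strand. TNFAIP3 had 2 matches within a few bases of each other, at 67 and 55 bases before the start, reading GGGACTTTCC and GGGGATTTCC on the opposite strand. NFKBIA and NFKB1 shared the same 10 bases, GGGAATTTCC, on the minus strand of the window 81 bases before the start in NFKBIA and on its plus strand 49 bases before the start in NFKB1. The NFKB2 window shown held the palindrome GGGAATTCCC at 107 bases before the start, which overlaps GGGGAATTCC read on the opposite strand, and GGGGCTTTCC at 78 bases before the start. A second NFKB2 window, not shown, held a further 2 matches. The windows of BIRC2, TNFAIP2, TRAF1 and ICAM1 held no match, which says only that these letters are not in these 300 bases. A match describes sequence, and binding was not measured.

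In HCT116, BIRC3 was the member with the largest difference, and its transcripts rose in both CD44s-OE and CD44v6-OE cells. RELB and TNFAIP3 also rose in CD44s-OE cells, and TNFAIP3 and TRAF1 in CD44v6-OE cells. A gene is said here to have risen or fallen where edgeR's quasi-likelihood test gave a Benjamini-Hochberg adjusted p under 0.1 over all genes tested and the log2 fold change (log2FC) was over 1.5 in size. Neither RELB nor TRAF1 passed in CD44s-OE over CD44v6-OE cells (log2FC 0.26 and -0.65, adjusted p = 0.848 and 0.437). By this rule 3 of the 10 genes rose in CD44s-OE cells over parental cells, against a background of 2.71% of the 17335 genes tested, and 3 of 10 rose in CD44v6-OE cells, against 0.738%. With the adjusted p alone, 7 of 10 were higher in CD44s-OE cells (background 8.45%) and 4 of 10 in CD44v6-OE cells (background 1.44%). The 10 genes were chosen with earlier results of these data known, so these shares describe the set and are not an independent test. DESeq2 gave 3 of the 10 genes past both thresholds in each comparison. Of all genes it gave 217 in CD44v6-OE cells, and in CD44s-OE cells a number within 1.5 times of edgeR's 536, in either direction. Past the adjusted p alone DESeq2 gave 8 of 10 in each, all but NFKB1 and ICAM1. No share over all genes is given here for that count, so it is not set against a background. At an unadjusted p under 0.05 edgeR gave the same 8 genes in each, against 4372 and 1933 of the 17335 genes tested. The gap between 7 and 4 was thus not seen by DESeq2 or with edgeR's unadjusted p. The fitted log2FC was above 0 for 10 of 10 genes in both comparisons, which share the same parental libraries. Its median over the 10 genes was 1.13 in CD44s-OE cells (0.04 over all genes) and 1.24 in CD44v6-OE cells (0.00 over all genes).

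**Figure D1:**
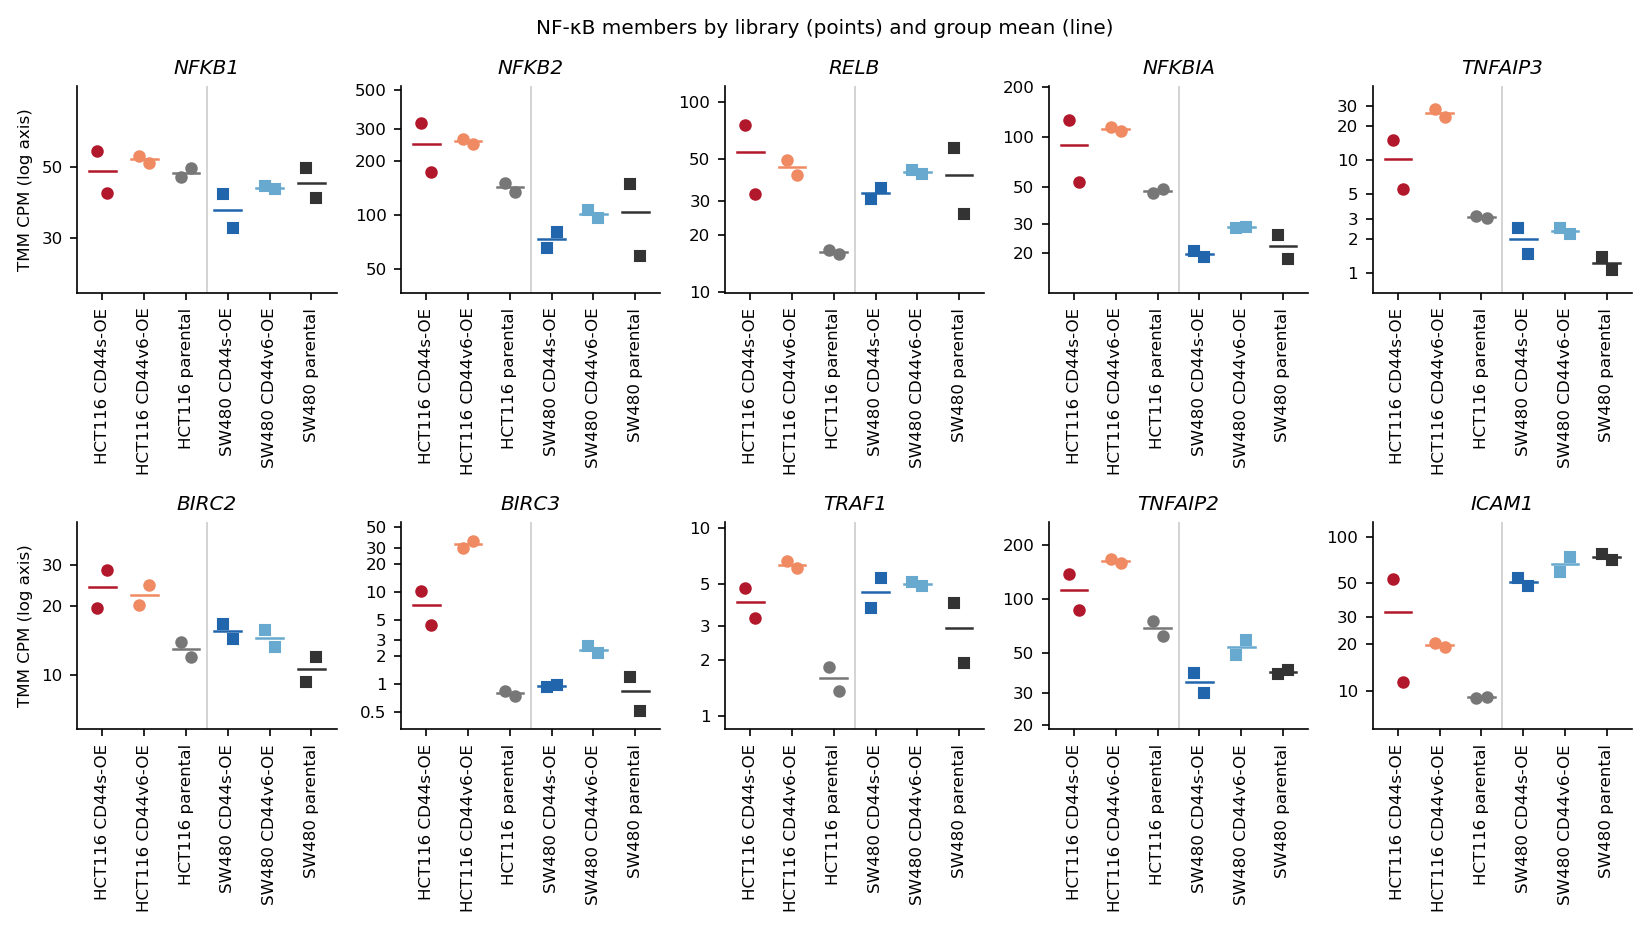
Levels of the 10 genes in each of the 12 libraries (TMM-scaled CPM, log axis), with groups along the x axis, 1 point per library and a line at the group mean. All of the genes except NFKB1 were higher in all 4 HCT116 OE libraries than in both HCT116 parental libraries. The first HCT116 CD44s-OE library exceeded the second for 9 of the 10 genes.

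The subunit genes differed among themselves. NFKB1 (ENSG00000109320, chr4:103422488-103538459) encodes p105, the precursor of p50. It had 56.3 and 41.4 CPM in HCT116 CD44s-OE cells and 54.3 and 51.7 CPM in HCT116 CD44v6-OE cells, against 46.6 and 49.6 CPM in HCT116 parental cells. Its log2FC was 0.02 (SE 0.16, adjusted p = 0.948) for CD44s-OE cells and 0.14 (SE 0.16, adjusted p = 0.80) for CD44v6-OE cells, the smallest of the 10 genes in both comparisons. Over the 6 groups of both lines its means lay between 36.8 and 53.0 CPM, and only the lowest group, SW480 CD44s-OE, did not overlap its neighbour in the order.

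NFKB2 (ENSG00000077150, chr10:104153867-104162281) encodes p100, the precursor of p52. Its level was 327 and 173 CPM in HCT116 CD44s-OE cells and 267 and 249 CPM in HCT116 CD44v6-OE cells, against 151 and 134 CPM in HCT116 parental cells. All 4 OE libraries lay above both parental libraries. The log2FC was 0.81 (SE 0.24, adjusted p = 0.0761) for CD44s-OE cells, past the adjusted p but below the fold threshold, and 0.85 (SE 0.24, adjusted p = 0.205) for CD44v6-OE cells.

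RELB (ENSG00000104856, chr19:45504707-45541456) encodes the partner of p52. It had 75.9 and 32.8 CPM in HCT116 CD44s-OE cells and 49.2 and 41.4 CPM in HCT116 CD44v6-OE cells, against 16.6 and 15.8 CPM in HCT116 parental cells. The parental libraries were close together and below the other 4, while the CD44s-OE libraries spanned the CD44v6-OE ones. RELB rose in CD44s-OE cells with a log2FC of 1.75 (SE 0.33, adjusted p = 0.0218), and in CD44v6-OE cells the value was 1.49 (SE 0.33, adjusted p = 0.111). The call in CD44s-OE cells was lost without the first parental library (log2FC 1.78, adjusted p = 0.104), the second parental library (1.71, adjusted p = 0.19) or the first CD44s-OE library (1.02, adjusted p = 2.07e-04).

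The other subunit genes were outside the set and are given for context. RELA, the activating subunit of the canonical dimer, was between 125 and 192 CPM in all 12 libraries, and REL between 1.48 and 3.81 CPM. TNF, a ligand that activates the pathway, had 0 to 16 counts per library and did not pass the filter.

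Of the feedback inhibitors, NFKBIA (ENSG00000100906, chr14:35870719-35873955) encodes IκBα, which retains the canonical dimers in the cytoplasm. NFKBIA had 127 and 53.3 CPM in HCT116 CD44s-OE cells and 115 and 109 CPM in HCT116 CD44v6-OE cells, against 45.8 and 48.9 CPM in HCT116 parental cells. The second CD44s-OE library lay near the parental ones and the other 3 OE libraries were well above them. The log2FC was 0.93 (SE 0.34, adjusted p = 0.141) for CD44s-OE cells and 1.24 (SE 0.34, adjusted p = 0.22) for CD44v6-OE cells. Neither passed by edgeR, while by DESeq2 both passed the adjusted p alone.

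TNFAIP3 (ENSG00000118503, chr6:138188351-138204449) encodes A20, a ubiquitin-editing enzyme that shuts off signalling from TNF receptors. Its level was 14.9 and 5.54 CPM in HCT116 CD44s-OE cells and 28.2 and 24.1 CPM in HCT116 CD44v6-OE cells, against 3.19 and 3.07 CPM in HCT116 parental cells. The 3 groups did not overlap, with CD44v6-OE highest. TNFAIP3 rose in CD44s-OE cells with a log2FC of 1.71 (SE 0.38, adjusted p = 0.031) and in CD44v6-OE cells with a log2FC of 3.06 (SE 0.40, adjusted p = 0.0139). The direct contrast of CD44s-OE with CD44v6-OE cells gave -1.36 (SE 0.37, adjusted p = 0.205). It passed without the first CD44s-OE library (-2.24), in a fit where the second library alone stood for that group.
Both TNFAIP3 calls depended on single libraries. In CD44s-OE cells the call was lost without the first parental library (log2FC 1.73, adjusted p = 0.144), the second parental library (1.68, adjusted p = 0.242) or the first CD44s-OE library (0.82, adjusted p = 0.00717). In CD44v6-OE cells it was lost without the first (3.09, adjusted p = 0.14) or second (3.03, adjusted p = 0.222) parental library.

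Among the genes of the receptor complex, BIRC3 (ENSG00000023445, chr11:102188181-102210134) encodes cIAP2, a ubiquitin ligase recruited through TRAF2. BIRC3 had 10.3 and 4.35 CPM (511 and 229 counts) in HCT116 CD44s-OE cells and 30.1 and 35.3 CPM (1584 and 1891 counts) in HCT116 CD44v6-OE cells. HCT116 parental cells had 0.853 and 0.742 CPM (45 and 38 counts). The 3 groups were fully apart, and the highest level was that of CD44v6-OE cells. BIRC3 rose in CD44s-OE cells with a log2FC of 3.19 (SE 0.39, adjusted p = 0.00352) and in CD44v6-OE cells with a log2FC of 5.35 (SE 0.41, adjusted p = 0.00106). In each comparison the call held with any 1 of the 6 HCT116 libraries left out, with log2FC of 2.44 to 3.67 in CD44s-OE cells and 5.23 to 5.46 in CD44v6-OE cells. The 2 OE groups also differed, with less BIRC3 under the CD44s-OE label than under CD44v6-OE (log2FC -2.16, SE 0.34, adjusted p = 0.0364), the only 1 of the 10 genes to pass in that contrast, where 0.162% of all genes were lower by the same rule. The other 9 genes lay between -1.36 (TNFAIP3) and 0.72 (ICAM1). That call was lost without the first (-2.17, adjusted p = 0.112) or second (-2.17, adjusted p = 0.11) parental library, or the first (-2.28, adjusted p = 0.229) or second (-2.05, adjusted p = 0.318) CD44v6-OE library. It was also lost when only the 2 groups compared were fitted (adjusted p = 0.128).

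BIRC2 (ENSG00000110330, chr11:102217942-102249401) is the neighbouring gene, which lies downstream of BIRC3 on the same strand, and encodes the paralogue cIAP1. It had 19.5 and 28.6 CPM in HCT116 CD44s-OE cells and 20.1 and 24.5 CPM in HCT116 CD44v6-OE cells, against 13.9 and 12.0 CPM in HCT116 parental cells. All 4 OE libraries were above the parental ones, by far less than for BIRC3. Its log2FC was 0.90 (SE 0.21, adjusted p = 0.0372) for CD44s-OE cells, below the fold threshold, and 0.78 (SE 0.21, adjusted p = 0.185) for CD44v6-OE cells. BIRC2 was also the only member of the 10 with a lower level in the first than in the second HCT116 CD44s-OE library. 

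TRAF1 (ENSG00000056558, chr9:123664671-123691451) encodes an adaptor that binds TRAF2 and the cIAP ligases. It had 4.78 and 3.34 CPM in HCT116 CD44s-OE cells and 6.65 and 6.08 CPM in HCT116 CD44v6-OE cells, against 1.84 and 1.37 CPM in HCT116 parental cells. The 3 groups did not overlap and kept the order seen for BIRC3 and TNFAIP3. TRAF1 rose in CD44v6-OE cells with a log2FC of 1.99 (SE 0.28, adjusted p = 0.0181), and in CD44s-OE cells its log2FC of 1.34 (SE 0.28, adjusted p = 0.0251) was below the fold threshold. The call in CD44v6-OE cells was lost without the first (2.22, adjusted p = 0.113) or second (1.79, adjusted p = 0.222) parental library, or the first (1.92, adjusted p = 0.169) or second (2.05, adjusted p = 0.118) CD44v6-OE library.

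Of the other targets, TNFAIP2 (ENSG00000185215, chr14:103587813-103603776) encodes M-Sec, a protein involved in membrane protrusions. It had 139 and 87.5 CPM in HCT116 CD44s-OE cells and 168 and 160 CPM in HCT116 CD44v6-OE cells, against 75.3 and 62.8 CPM in HCT116 parental cells. The 3 groups were apart. TNFAIP2 passed the adjusted p alone in CD44s-OE cells (log2FC 0.72, SE 0.20, adjusted p = 0.0621) and in CD44v6-OE cells (log2FC 1.25, SE 0.20, adjusted p = 0.0315).

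ICAM1 (ENSG00000090339, chr19:10381769-10397291) encodes a cell surface ligand of leukocyte integrins. It had 53.6 and 11.4 CPM in HCT116 CD44s-OE cells and 20.4 and 19.1 CPM in HCT116 CD44v6-OE cells, against 8.95 and 9.16 CPM in HCT116 parental cells. The CD44s-OE libraries lay on both sides of the CD44v6-OE ones, and the second was close to the parental level. Its log2FC was 1.85 (SE 0.72, adjusted p = 0.198) for CD44s-OE cells and 1.13 (SE 0.71, adjusted p = 0.642) for CD44v6-OE cells. Without the second CD44s-OE library ICAM1 was called in CD44s-OE cells (log2FC 2.55), in a fit where the first library alone stood for that group.

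**Figure D2:**
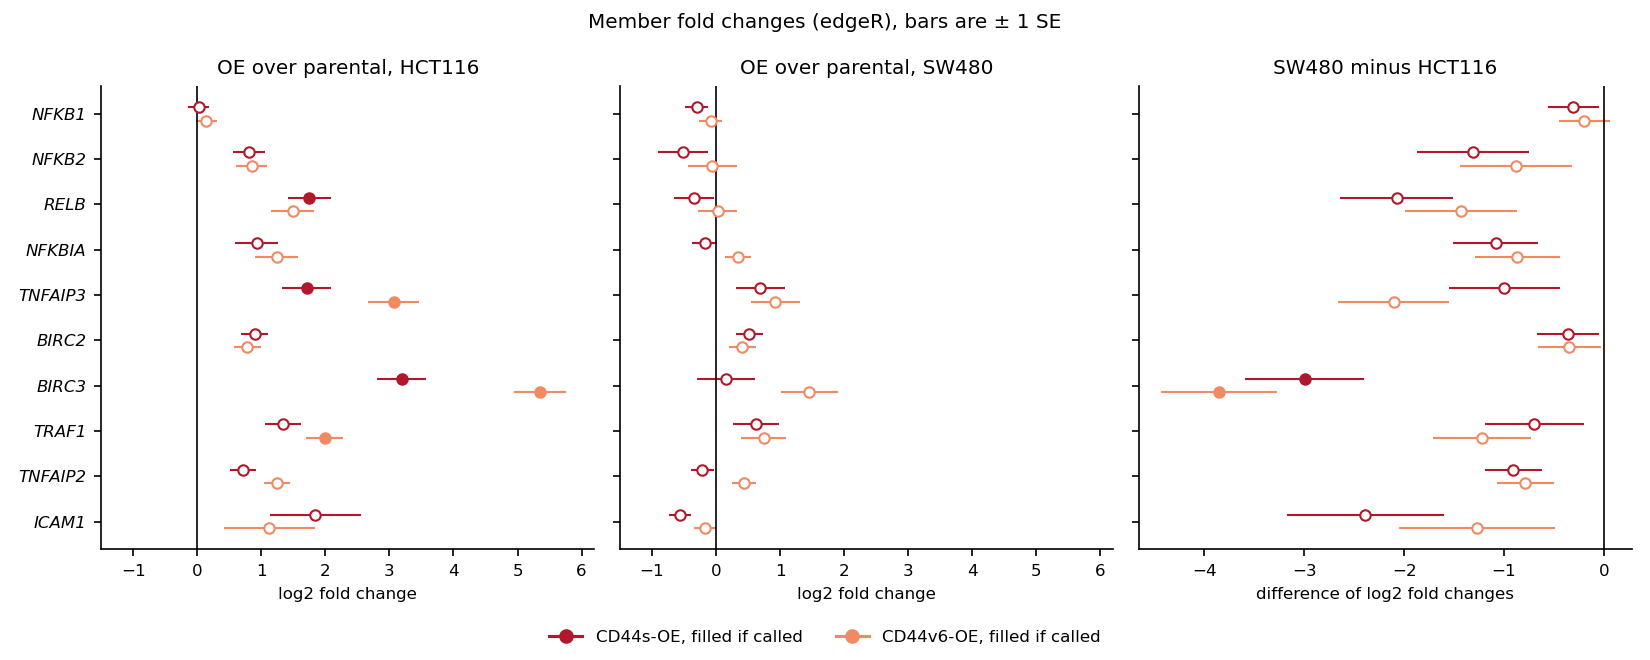
Fitted log2FC of each gene with its SE for OE over parental cells in each line (edgeR, within-line fits) and for the difference between the lines. Filled symbols mark genes that passed both thresholds, which in HCT116 were BIRC3, RELB and TNFAIP3 in CD44s-OE cells and BIRC3, TNFAIP3 and TRAF1 in CD44v6-OE cells, and in SW480 none.

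The libraries of HCT116 CD44s-OE and of SW480 parental cells differed from each other more than those of the other 4 groups. The SD of the log2 difference between replicates over 10891 genes was 0.48 for HCT116 CD44s-OE, 0.47 for SW480 parental cells and 0.19 to 0.37 in the other 4. The share of genes over 2-fold apart was 3.14% for HCT116 CD44s-OE, 4.03% for SW480 parental cells and 0.358% to 1.40% in the other 4. Within HCT116 CD44s-OE, 9 of the 10 genes were higher in the first library, with a median log2 difference of 1.06. The difference was 2.23 for ICAM1, larger in size than for 99.7% of genes. It was 1.42 for TNFAIP3, 1.25 for NFKBIA, 1.23 for BIRC3 and 1.21 for RELB, each larger in size than for over 98% of genes. In SW480 parental cells 8 of 10 were higher in the first library, with differences of 1.33 for NFKB2, 1.15 for RELB, 1.13 for BIRC3 and 1.04 for TRAF1. The median of the 10 genes in the remaining 4 groups was between 0.07 and 0.15.

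**Figure D3:**
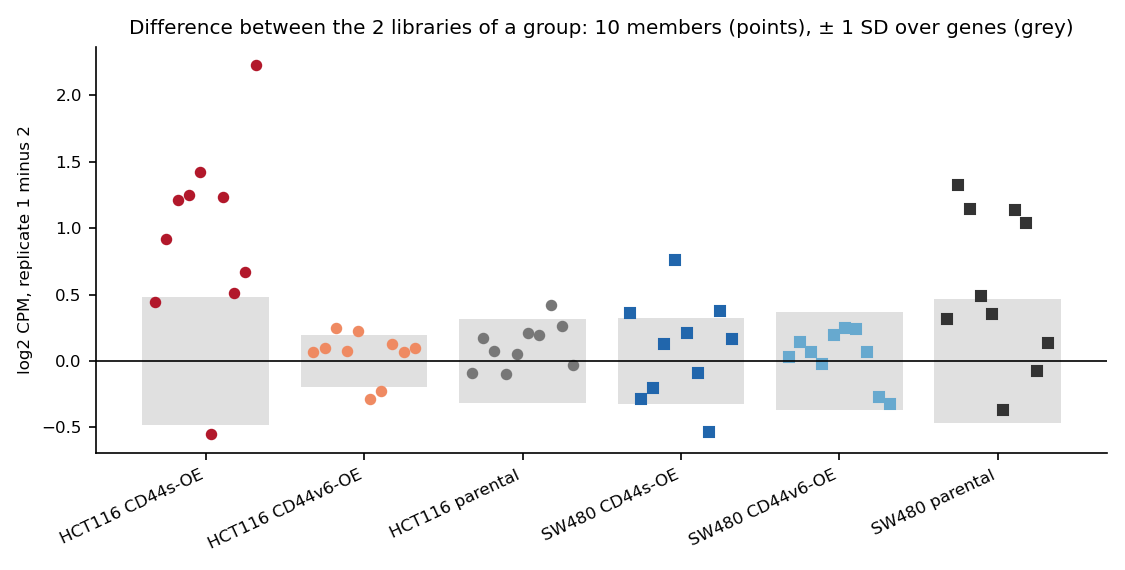
Difference of log2 CPM between the first and the second replicate library of each group, with 1 point per gene of the set and grey boxes of ± 1 SD over 10891 genes. The points of HCT116 CD44s-OE and SW480 parental cells lie mostly above 0, with the largest value, 2.23, for ICAM1 in HCT116 CD44s-OE cells.

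The genes called depended on single libraries. Without the second HCT116 CD44s-OE library TRAF1 (log2FC 1.56) and ICAM1 (2.55) were called as well in CD44s-OE over parental cells. Without the first, RELB (1.02) and TNFAIP3 (0.82) were not called. RELB and TNFAIP3 were not called without either parental library, and TRAF1 was called without the first of these (1.57). In CD44v6-OE over parental cells TNFAIP3 and TRAF1 were not called without either parental library, nor TRAF1 without either CD44v6-OE library. BIRC3 was called in each of these fits. Over all genes the number called moved between these fits as well, and its range is given at the end.

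Markers of other cell types were also compared in HCT116. The 5 fibroblast markers summed to 25.6 to 36.5 CPM in CD44s-OE cells and 30.7 to 34.1 CPM in CD44v6-OE cells, against 13.6 to 19.1 CPM in parental cells. Nearly all of this was COL1A1 (means of 30.9, 32.0 and 15.8 CPM in CD44s-OE, CD44v6-OE and parental cells), and DCN and LUM were at or near 0 in all 6 HCT116 libraries. The leukocyte markers summed to 1.12 to 1.37 CPM in CD44s-OE cells and 1.41 to 2.00 CPM in CD44v6-OE cells, against 0.722 to 0.948 CPM in parental cells, with PTPRC and CD3E at or near 0. In bulk RNA a smaller share of cells expressing a gene and less RNA per cell cannot be told apart, and this holds for each difference given here.

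In SW480 none of the 10 genes passed the rule in any of the 3 comparisons. Over parental cells the background was 2.03% of the 17539 genes tested in CD44s-OE cells and 0.416% in CD44v6-OE cells, and 1.02% in CD44s-OE over CD44v6-OE cells. With the adjusted p alone the count was also 0, against 4.72%, 0.57% and 2.12% of all genes. At an unadjusted p under 0.05 edgeR gave 2 genes in CD44s-OE over parental cells (BIRC2 and ICAM1), against 2786 of the 17539 genes tested. In CD44v6-OE over parental cells it gave 3 (BIRC3, TNFAIP2 and TNFAIP3), against 1527 of all genes tested. In CD44s-OE over CD44v6-OE cells it gave 4 (BIRC3, ICAM1, NFKBIA and TNFAIP2), against 1894. DESeq2 likewise gave 0 genes past both thresholds. Past an adjusted p of 0.1 alone DESeq2 gave 1 gene (ICAM1), 0 genes and 1 gene (TNFAIP2) in the same comparisons. No share over all genes is given here for these counts, so they are not set against a background. The median log2FC of the 10 genes was -0.19 in CD44s-OE and 0.38 in CD44v6-OE over parental cells, with 4 and 7 of the 10 above 0.

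BIRC3 in SW480 had 0.924 and 0.988 CPM in CD44s-OE cells and 2.57 and 2.17 CPM in CD44v6-OE cells, against 1.19 and 0.519 CPM in parental cells. The CD44v6-OE libraries were above the other 4, and the CD44s-OE libraries lay within the parental range. Its log2FC was 0.16 (SE 0.45, adjusted p = 0.913) for CD44s-OE cells and 1.46 (SE 0.44, adjusted p = 0.289) for CD44v6-OE cells. Without the first parental library CD44v6-OE cells passed (2.16). TNFAIP3 had 2.50 and 1.46 CPM in SW480 CD44s-OE cells and 2.51 and 2.19 CPM in SW480 CD44v6-OE cells, against 1.36 and 1.06 CPM in SW480 parental cells. Its log2FC was 0.69 (adjusted p = 0.425) for CD44s-OE cells and 0.93 (SE 0.38, adjusted p = 0.503) for CD44v6-OE cells.

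The NFKB2 and RELB levels in SW480 were dominated by the spread between the parental libraries. NFKB2 had 66.1 and 80.8 CPM in CD44s-OE cells and 107 and 96.9 CPM in CD44v6-OE cells, against 149 and 59.1 CPM in parental cells. RELB had 30.7 and 35.3 CPM in CD44s-OE cells and 43.9 and 41.8 CPM in CD44v6-OE cells, against 56.9 and 25.7 CPM in parental cells. For both genes the 2 parental libraries enclosed all 4 OE ones, and the log2FC lay between -0.52 and 0.03. TRAF1 had 3.74 and 5.44 CPM in CD44s-OE cells and 5.13 and 4.90 CPM in CD44v6-OE cells, against 3.99 and 1.92 CPM in parental cells.

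ICAM1 was the member with the lowest log2FC in SW480 CD44s-OE cells. It had 53.8 and 48.0 CPM in CD44s-OE cells and 59.6 and 74.7 CPM in CD44v6-OE cells, against 77.8 and 70.6 CPM in parental cells. The CD44s-OE libraries lay below the other 4, with a log2FC over parental cells of -0.56 (SE 0.17, adjusted p = 0.117). NFKBIA had 20.7 and 18.9 CPM in CD44s-OE cells and 28.4 and 28.8 CPM in CD44v6-OE cells, against 25.9 and 18.4 CPM in parental cells. TNFAIP2 had 39.0 and 30.1 CPM in CD44s-OE cells and 49.2 and 59.5 CPM in CD44v6-OE cells, against 38.4 and 40.4 CPM in parental cells. NFKB1 lay between 32.3 and 49.7 CPM and BIRC2 between 9.35 and 16.7 CPM in the 6 SW480 libraries, and BIRC2 was above both parental libraries in all 4 OE ones.

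The difference between the lines was tested directly, as the log2FC in SW480 minus the log2FC in HCT116, in a fit over all 12 libraries and 19567 genes. For CD44s-OE over parental cells the difference was below 0 for 10 of 10 genes and passed both thresholds for BIRC3 (-3.00, SE 0.60, adjusted p = 0.0197), against a background of 1.31% of genes lower. For CD44v6-OE over parental cells it was again below 0 for 10 of 10 genes and passed for BIRC3 (-3.85, SE 0.58, adjusted p = 0.0154), against a background of 0.148%. The median difference of the 10 genes was -1.04 for CD44s-OE and -1.05 for CD44v6-OE cells. The BIRC3 difference for CD44v6-OE held with any 1 of the 12 libraries left out (-4.35 to -3.16). That for CD44s-OE ranged from -3.50 to -2.24 and was lost without the second SW480 CD44s-OE library (-3.04, adjusted p = 0.108).

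The differences of the other genes did not pass. The next largest for CD44s-OE were ICAM1 (-2.39, SE 0.79, adjusted p = 0.181) and RELB (-2.07, SE 0.57, adjusted p = 0.108), and for CD44v6-OE TNFAIP3 (-2.10, SE 0.56, adjusted p = 0.201). By DESeq2 these 3 differences passed as well, and TNFAIP3 for CD44v6-OE also passed without either HCT116 CD44s-OE library (-2.10 in both fits). Without the second HCT116 CD44s-OE library ICAM1 (-3.1), RELB (-2.55), NFKBIA (-1.57) and TNFAIP3 (-1.53) also passed for CD44s-OE. Without the second SW480 parental library NFKB2 (-1.82) and RELB (-2.53) also passed for CD44s-OE. Over all genes the number passing moved between such fits as well, and its range is given at the end. NFKB1 had the smallest difference in both contrasts (-0.30 and -0.19). For CD44s-OE over CD44v6-OE cells, the difference between the lines lay between -1.12 and 1.11 and 0 genes passed, against a background of 0.327%. DESeq2 also gave 0 past both thresholds, against 171 of all genes. At an unadjusted p under 0.05 edgeR gave 0, against 1645 of 19567 genes. TNFAIP3 passed without the first HCT116 CD44s-OE library (1.99) and ICAM1 without the second (-1.84). A contrast that misses the threshold does not show that the isoforms acted alike in the lines.

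The 2 parental lines also differed in these genes. ICAM1 was higher in SW480 parental cells (77.8 and 70.6 CPM) than in HCT116 parental cells (8.95 and 9.16 CPM), with a log2FC of 3.03 (SE 0.59, adjusted p = 0.00289), and passed with any 1 of the 12 libraries left out. It was the only 1 of the 10 genes to pass both thresholds, where 29% of all genes did, and 6 of 10 passed the adjusted p alone, where 60.9% did. Those shares are near or below the background and describe lines that differ broadly. RELB was higher in SW480 parental cells by the adjusted p alone (log2FC 1.35, SE 0.40, adjusted p = 0.0175) as was TRAF1 (0.87, SE 0.36, adjusted p = 0.0526). TNFAIP3 (-1.37, SE 0.41, adjusted p = 0.0115), NFKBIA (-1.10, SE 0.31, adjusted p = 0.00961) and TNFAIP2 (-0.81, SE 0.20, adjusted p = 0.00415) were lower in SW480 parental cells. Without the first SW480 parental library TNFAIP3 passed both thresholds (-1.56), and without the second RELB did (1.82). BIRC3 was low in both, with a log2FC of 0.07 (SE 0.44, adjusted p = 0.908).

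Levels of different genes were compared per kilobase of the annotated gene length. On this scale NFKB2 was the highest of the 10 genes in all 6 groups. In HCT116 NFKB2 was at 53.1 CPM per kb in CD44s-OE cells and 54.7 in CD44v6-OE cells, against 30.3 in parental cells, and NFKBIA and TNFAIP2 followed in this order in each group. BIRC3 was at 0.971 ± 0.556 CPM per kb in CD44s-OE cells and 4.35 ± 0.486 in CD44v6-OE cells, against 0.106 ± 0.0105 in parental cells (SD, n = 2 each). It was thus the lowest gene of the set in HCT116 parental cells and remained at rank 9 of 10 in both OE groups, close to TRAF1 in CD44s-OE cells (0.907) and close to BIRC2 in CD44v6-OE cells (4.92). In SW480 the order of the 10 genes was the same in all 3 groups, with NFKB2, ICAM1 and RELB at the top and TRAF1, TNFAIP3 and BIRC3 at the bottom. ICAM1 was at 14.8 CPM per kb in SW480 CD44s-OE cells and 19.5 in SW480 CD44v6-OE cells, against 21.5 in SW480 parental cells, where NFKB2 was at 22.0 with a wider spread.

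**Figure D4:**
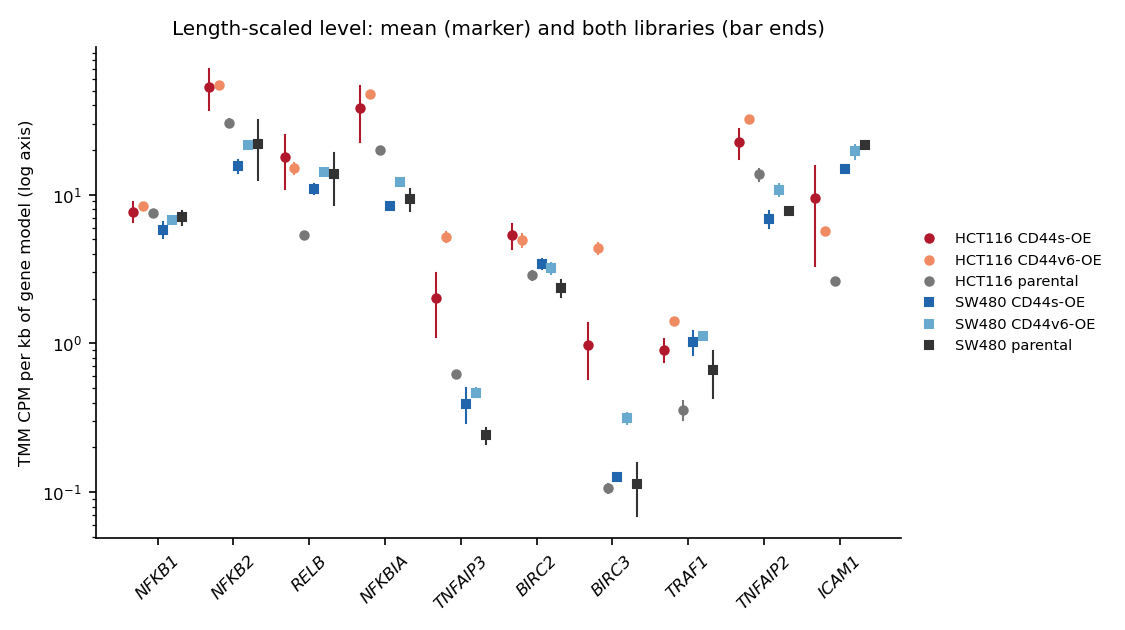
Mean level of the 10 genes in each group (markers) with bars that end at the 2 libraries, as TMM-scaled CPM per kb of gene length on a log axis. NFKB2 is highest in all 6 groups, and BIRC3 is lowest in HCT116 parental cells (0.106) and in all 3 SW480 groups.

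Across all 6 groups, BIRC3 was highest in HCT116 CD44v6-OE cells, followed by HCT116 CD44s-OE and SW480 CD44v6-OE cells, each apart from the next, while the 3 lowest groups (SW480 CD44s-OE, SW480 parental and HCT116 parental) overlapped. TNFAIP3 ran from HCT116 CD44v6-OE through HCT116 CD44s-OE and HCT116 parental to the 3 SW480 groups, and only the 2 SW480 OE groups overlapped. TNFAIP2 and NFKBIA had the same order of groups as each other, with HCT116 CD44v6-OE highest and SW480 CD44s-OE lowest. In both genes the 2 lowest groups, SW480 parental and SW480 CD44s-OE, overlapped, and in NFKBIA the 2 highest as well. In RELB the first 5 groups formed a chain of overlapping neighbours and only HCT116 parental was apart. TRAF1 was highest in HCT116 CD44v6-OE and lowest in HCT116 parental cells, both apart from the overlapping groups between them. In NFKB2 the 2 HCT116 OE groups overlapped and were apart from the rest. SW480 CD44s-OE had the lowest mean and lay below SW480 CD44v6-OE, but within the range of the SW480 parental libraries. BIRC2 was highest in the 2 HCT116 OE groups, which overlapped, and the other 4 groups overlapped with their neighbours. ICAM1 had the reverse placement of the lines, with SW480 parental and SW480 CD44v6-OE at the top and HCT116 parental apart at the bottom.

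For the 4 genes called within a line, the genes with the most similar profile were found by the root-mean-square difference of log2 CPM over the 12 libraries, centred within each line, among 11074 genes. They were IFIH1 (0.58), DDX58 (0.61) and APOL6 (0.64) for BIRC3, and UBA7 (0.35), PARP9 (0.36) and IFIH1 (0.39) for TNFAIP3. For RELB they were NR4A1 (0.13), PLEKHA4 (0.20) and PPP1R15A (0.23), and for TRAF1 CYTH4 (0.29), BTN3A1 (0.33) and SHFL (0.34). With the deposited variance-stabilised values in place of CPM, 2 of 3 were the same for BIRC3, 1 of 3 for TNFAIP3, 3 of 3 for RELB and 2 of 3 for TRAF1. The 12 libraries share these groups and their 2 controls per line, so the measure is a description.

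The remaining genes of the pathway were read from lists of 120 genes outside the 10. These lists were also written with earlier results of these data known, so their shares are a description and not an independent test. In HCT116, 97 of them were tested. In CD44s-OE over parental cells 12 rose and 0 fell (median log2FC 0.27), and in CD44v6-OE over parental cells 10 rose and 0 fell (median 0.26). Of all genes tested 2.71% and 0.738% rose in these comparisons, which is the background for each list that follows, and lists in which 0 or 1 gene rose are given as counts only. The secreted and surface targets held most of these, with 7 of 17 tested genes higher in each comparison and medians of 1.17 and 2.34. Those with the lowest adjusted p were CXCL8, CXCL10, C3 and CXCL1 in CD44s-OE cells, and CXCL8, CXCL10, CCL20 and C3 in CD44v6-OE cells, which encode chemokines and complement component C3. Of the other subunit and IκB genes 1 of 7 rose in each comparison (NFKBIZ), and of the ligands 1 of 8 (TNFSF10). Of the receptors 2 of 15 rose in CD44s-OE cells (TNFRSF25 and TNFRSF14) and 1 of 15 in CD44v6-OE cells (TLR3). Some of these calls rest on few counts. TNFRSF14 had 16 and 11 counts in CD44s-OE cells against 1 and 2 in parental cells, and TNFSF10 12 and 8 against 2 and 0. CXCL10 and CCL20 had at most 2 counts in a parental library. Of the survival and stress targets 1 of 16 rose in CD44s-OE cells (PLAUR) and 0 of 16 in CD44v6-OE cells. Of the 21 adaptors, kinases and ligases upstream 0 passed in either comparison, as did 0 of the 10 deubiquitinases and other brakes and 0 of 3 targets of the RELB and NFKB2 arm. Of the 12 genes that rose in CD44s-OE cells only CXCL8 was called with each of the 6 libraries left out in turn, and of the 10 in CD44v6-OE cells 0 were.

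CXCL8, the neutrophil chemokine interleukin 8, had 6.02 and 2.47 CPM in HCT116 CD44s-OE cells and 8.75 and 10.5 CPM in HCT116 CD44v6-OE cells, against 0.228 and 0.449 CPM in HCT116 parental cells. Its log2FC was 3.64 (SE 0.49, adjusted p = 0.00451) for CD44s-OE cells and 4.82 (SE 0.49, adjusted p = 0.005) for CD44v6-OE cells, where the call was lost without the second parental library (adjusted p = 0.109). NFKBIZ, which encodes the nuclear IκB protein IκBζ, had 7.95 and 3.79 CPM in HCT116 CD44s-OE cells and 12.4 and 12.3 CPM in HCT116 CD44v6-OE cells, against 1.93 and 1.97 CPM in HCT116 parental cells. Its log2FC was 1.59 (SE 0.33, adjusted p = 0.0231) for CD44s-OE cells and 2.66 (SE 0.33, adjusted p = 0.0127) for CD44v6-OE cells, and both calls were lost without either parental library (adjusted p = 0.116 and 0.189 in CD44s-OE cells, 0.123 and 0.204 in CD44v6-OE cells). The first of them was also lost without the first CD44s-OE library (log2FC 0.95).

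In SW480 95 of the 120 genes were tested. In CD44s-OE over parental cells 2 rose and 2 fell, in CD44v6-OE over parental cells 1 rose and 0 fell, and in CD44s-OE over CD44v6-OE cells 0 rose and 4 fell. The share of all genes that passed in either direction was 2.03%, 0.416% and 1.02% in the same comparisons. None of these calls held with each library left out in turn. TNFSF10, the death receptor ligand TRAIL, was the gene higher in both OE groups. It had 3.05 and 2.06 CPM in SW480 CD44s-OE cells and 3.49 and 3.68 CPM in SW480 CD44v6-OE cells, against 0.556 and 0.799 CPM in SW480 parental cells. Its log2FC was 1.88 (SE 0.37, adjusted p = 0.0229) for CD44s-OE cells and 2.36 (SE 0.37, adjusted p = 0.0335) for CD44v6-OE cells. The first call was lost without either CD44s-OE library (adjusted p = 0.168 and 0.114). The second was lost without any 1 of the 4 OE libraries (adjusted p = 0.103 to 0.294).

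The other gene that rose in SW480 CD44s-OE over parental cells was CCL5, a chemokine, with 8 and 30 counts in CD44s-OE cells and 0 counts in both parental libraries. LAMB3, a laminin chain of the epithelial basement membrane, and CSF2, the cytokine GM-CSF, were the genes that fell. LAMB3 had 18.5 and 21.0 CPM in CD44s-OE cells and 50.3 and 62.0 CPM in CD44v6-OE cells, against 86.7 and 54.7 CPM in parental cells. Both CD44s-OE libraries were below the other 4. LAMB3 fell in CD44s-OE cells over parental cells (log2FC -1.86, SE 0.23, adjusted p = 0.00195) and over CD44v6-OE cells (-1.503, SE 0.22, adjusted p = 0.00728). Without the first parental library the first value was -1.49, under the fold threshold, and the second, at the threshold, was lost without either CD44s-OE library (adjusted p = 0.145 in both fits) and without the second CD44v6-OE library (-1.34).

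CSF2 had 0.294 and 0.356 CPM in SW480 CD44s-OE cells and 1.85 and 1.84 CPM in SW480 CD44v6-OE cells, against 1.77 and 0.779 CPM in SW480 parental cells. Its log2FC in CD44s-OE cells was -1.97 over parental cells (SE 0.50, adjusted p = 0.0661), lost without any 1 library other than the second parental one (adjusted p = 0.128 to 0.38), and -2.49 over CD44v6-OE cells (SE 0.50, adjusted p = 0.0345), lost without any 1 library of those 2 groups (adjusted p = 0.194 to 0.365). C3 and LTB, a ligand of the TNF family, were the other genes that fell in the SW480 contrast of CD44s-OE over CD44v6-OE. C3 had 0.672 and 0.890 CPM in CD44s-OE cells, against 4.65 and 3.44 CPM in CD44v6-OE cells (log2FC -2.36, SE 0.50, adjusted p = 0.0491), a call lost without any 1 of these 4 libraries (adjusted p = 0.166 to 0.469). LTB had 0 counts in both CD44s-OE libraries, against 14 and 15 counts in CD44v6-OE cells.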

How the data were processed

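Total RNA of the 12 libraries was sequenced paired-end on DNBSEQ. SOAPnuke removed poor reads, STAR 2.7.9a mapped the rest to hg19, and assignments were made to GENCODE v35lift37 genes by featureCounts (Subread 2.0.3), as the study's methods, the file headers and the submitters' processing notes state. The deposited gene counts are not normalised, keep primary alignments and were counted with a reverse-stranded setting. Even counts were commoner than the odd counts below them in 12 of 12 libraries (4 against 3 and 6 against 5), so each mate of a pair was taken as counted. A second deposited table holds the authors' variance-stabilised values on a log2-like scale (DESeq2 1.30.1), used here only for gene symbols and to repeat the search for similar profiles.

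From the counts, CPM with TMM factors and quasi-likelihood tests (robust fit, filterByExpr) were computed in edgeR 4.0.16 (limma 3.58.1, R 4.3.3). Each line was fitted over its 6 libraries, and differences between lines over all 12. SE is the log2FC divided by the root of F. A gene passed where its log2FC was over 1.5 in size and its adjusted p (Benjamini-Hochberg) under 0.1, the thresholds of the study's methods, and the fits were tested on simulated data. The 10 genes were named in every comparison. From the other lists, in comparisons within a line, up to 4 called genes per list and direction were named, those with the lowest adjusted p. The log2FC of some of them is given. The 10 genes, the pathway lists and the markers were chosen with earlier results of these data known. Alternatives were DESeq2 1.42.0, other filters, scalings and thresholds, fits of fewer or more groups, a replicate block and leaving out each library.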

Additional observations from a re-analysis of the deposited data

Results flagged for a closer look

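The log2FC of BIRC3 over parental cells differed between SW480 and HCT116 by a direct test in the fit over all 12 libraries. SW480 minus HCT116 was -3.00 for CD44s-OE cells (edgeR adjusted p = 0.0197) and -3.85 for CD44v6-OE cells (adjusted p = 0.0154). Both contrasts use the same 4 parental libraries.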

How the results depend on the processing

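The limits lie mainly in 2 libraries per group. The 60 group levels moved by less than 1 SD under scaling by total counts. Of the member log2FC under settings other than leaving out a library, 999 kept their direction and side of the threshold, 19 newly passed, 1 no longer passed and 1 reversed. With 1 library left out, 768 kept both, 17 newly passed, 17 no longer passed and 38 reversed. Where this left a group with 1 library, that library was assumed to vary like the others.

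Counts of passing genes are given in the order HCT116 CD44s-OE over parental, CD44v6-OE over parental and CD44s-OE over CD44v6-OE (536, 135 and 50 genes), the same for SW480 (356, 73 and 179), the same for SW480 minus HCT116 (393, 61 and 64), and SW480 over HCT116 parental cells (5670), and values moved by less than 1.5 times are left out. With an adjusted p under 0.05 they were 345 and 83 in HCT116, 43 in SW480 CD44v6-OE over parental, and 234, 33 and 32 for the line differences. With no minimum fold change they were 2455, 266 and 141 in HCT116, 828 and 371 in SW480 CD44s-OE over parental and over CD44v6-OE, 768 for the CD44s-OE line difference and 11914 between parental lines. The passing members were then 7 in HCT116 CD44s-OE over parental and 6 between parental lines. With a mean count of at least 50 they were 314 in HCT116 CD44s-OE over parental, 226 and 40 in SW480 over parental, and 3020 between parental lines. With only the 2 groups compared they were 355, 352 and 29 in HCT116 (with 0 members in the last) and 14 and 327 in SW480 CD44v6-OE over parental and CD44s-OE over CD44v6-OE. With no filter they were 283 and 132 in HCT116 CD44v6-OE over parental and CD44s-OE over CD44v6-OE, 582, 289 and 293 in SW480, and 659, 273 and 212 for the line differences. DESeq2 gave 217 and 86 in HCT116 CD44v6-OE over parental and CD44s-OE over CD44v6-OE, 169 in SW480 CD44v6-OE over parental, and 637, 214 and 171 for the line differences. A fit over all 12 libraries gave 133 in SW480 CD44v6-OE over parental. For the CD44s-OE line difference, 2 members passed with no filter and with a mean count of at least 50, and 3 without the robust fit and with DESeq2, and for CD44v6-OE 2 passed with no filter and with DESeq2. The causes were not tested.

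With each library left out, the counts in the same order were 136 to 805, 7 to 369 and 7 to 326 in HCT116, 79 to 809, 13 to 344 and 38 to 321 in SW480, 163 to 627, 16 to 172 and 6 to 137 for the line differences, and 5338 to 5946 between parental lines. The passing members were 1 to 5, 1 to 3 and 0 to 2 in HCT116, 0 to 0, 0 to 1 and 0 to 0 in SW480, 0 to 5, 1 to 2 and 0 to 1 for the line differences, and 1 to 2 between parental lines. The sign of a log2FC changed in these ranges, none of which belongs to a call with all libraries. In HCT116 CD44s-OE over parental it was NFKB1 (-0.22 to 0.21). In HCT116 CD44s-OE over CD44v6-OE these were NFKB2 (-0.57 to 0.33), BIRC2 (-0.20 to 0.36), NFKBIA (-1.07 to 0.17), ICAM1 (-0.79 to 1.43), RELB (-0.47 to 0.73) and NFKB1 (-0.36 to 0.0767). In SW480 CD44s-OE over parental these were NFKB2 (-1.03 to 0.29), BIRC3 (-0.33 to 0.86), NFKBIA (-0.40 to 0.0857) and RELB (-0.80 to 0.34), and in SW480 CD44v6-OE over parental NFKB2 (-0.57 to 0.76), RELB (-0.43 to 0.71) and NFKB1 (-0.23 to 0.0851). In SW480 CD44s-OE over CD44v6-OE these were BIRC2 (-0.0050 to 0.22), TNFAIP3 (-0.68 to 0.10) and TRAF1 (-0.42 to 0.12). In the line difference for CD44s-OE over CD44v6-OE these were NFKB2 (-0.81 to 0.10), BIRC2 (-0.26 to 0.29), NFKBIA (-0.71 to 0.54), TNFAIP2 (-0.42 to 0.25), ICAM1 (-1.84 to 0.39), RELB (-1.12 to 0.0901) and NFKB1 (-0.31 to 0.13). Between parental lines these were NFKB2 (-1.27 to 0.0556), BIRC3 (-0.62 to 0.57) and NFKB1 (-0.27 to 0.0463).

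The labels give no shared origin for equal replicate numbers, and the correlations of equal numbers' deviations from their group means over 10739 genes were 0.190, 0.109 and 0.0514 in HCT116 and -0.179, -0.210 and 0.0802 in SW480, so the libraries were not treated as pairs. A fit with the replicate number as a block left the number of passing members at 3, 3 and 1 in HCT116, 0 in all SW480 comparisons, 1, 1 and 0 for the line differences and 1 between parental lines. The genes passing with the block were 539, 169 and 69 in HCT116, 348, 70 and 188 in SW480, 343, 57 and 64 for the line differences and 5256 between parental lines. The block reversed the sign of NFKB2 in SW480 CD44v6-OE over parental (0.0198 against -0.05), which did not pass in either fit.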
